A study of Drosophila melanogaster with 16 samples.

Results

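The comparison described here set the Gr5a fraction of flies kept 7 days on a sugar diet (SD7, 2 libraries) against that of flies kept 3 days on it (SD3, 2 libraries). These are 4 of the 16 libraries of the study, taken by their titles and diet labels and by no measured value. All 4 came from heads of male Drosophila melanogaster of the genotype Gr5a>UAS-Rpl3-3XFLAG, in which the Gr5a driver puts a FLAG-tagged RpL3, a protein of the large ribosomal subunit, into the cells in which Gr5a, a sweet taste receptor gene, is active. Ribosomes with the tag were pulled down from the lysate of 300 heads per replicate, and the RNA that came with them is the Gr5a fraction. The sugar diet held 30% sucrose and the control diet 5%. Flies of the 7-day groups went on their diet at day 5 and were collected at day 12. The labels give no age of their own for SD3, and the methods of the study call the flies age-matched. The other Gr5a libraries were CD7 (7 days of control diet, 3 libraries), CD>CD (14 days, control diet throughout, 2 libraries) and SD>CD (sugar followed by control diet by the condition label, 2 libraries, whose titles read CD>CD). The driver marks few cells of a head, heads were sieved from frozen flies and pooled, and RNA of other cells can bind to the beads, so each library holds RNA of several cell types.

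Sweet taste neurons of the fly proboscis carry gustatory receptors of the Gr5a, Gr64 and Gr61a group on the cell membrane, and sugar that binds them makes the neuron fire. Ionotropic receptors such as Ir56d, Ir25a and Ir76b work in the taste of fatty acids in the same neurons. Flies on a high sugar diet lose part of their response to sweet stimuli, and the study took samples at 3 and 7 days to follow how the response to the diet unfolds in these cells.

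The 4 libraries were deep. SD3 held 30539202 and 36981259 gene counts, and SD7 held 49117482 and 45051933, within a range of 22901154 to 55290069 over all 16 libraries. At least 10 counts were found for 12605 and 12648 genes in SD3 and for 13580 and 13302 in SD7. Reads in no annotated gene made up 5.9% and 4.2% in SD3 and 6.99% and 8.4% in SD7. Replicates were distinct libraries, with a chi-square per degree of freedom of 51.1 for SD3 and 94.7 for SD7. The median absolute log2 ratio of a gene between replicates was 0.206 in SD3 and 0.26 in SD7, and between an SD7 and an SD3 library it lay between 0.253 and 0.413, so the closest libraries of different groups were nearer to each other than the SD7 replicates were. The deposited tables of the Gr5a fraction carry numbers from separate ranges, with CD7 and SD7 in the lower range and SD3, CD>CD and SD>CD in the upper. The labels name no batch, and a difference tied to the number range cannot be told apart from a difference in days.

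No gene passed the test of SD7 against SD3. In an edgeR quasi-likelihood fit of all 11 Gr5a libraries, 0 of 13758 genes (0%) had an adjusted p under 0.1, and the smallest adjusted p was 0.195. At an unadjusted p under 0.05, 1530 genes (11.1%) were higher in SD7 and 839 (6.1%) were lower. The DESeq2 Wald test of the same 11 libraries called 776 genes, 500 higher and 276 lower. An edgeR fit of the 4 libraries alone, whose spread comes only from the replicates of SD3 and SD7, called 82 of 13266 genes higher (0.618%) and 157 lower (1.18%). Of these 239 genes, 189 had an unadjusted p under 0.05 in the same direction in the 11-library fit, and 143 were also called by the Wald test. The 4-library count moved between 21 and 3219 with the library left out: 130 without SD3 replicate 1, 21 without SD3 replicate 2, 1806 without SD7 replicate 1 and 3219 without SD7 replicate 2. Each of these fits has 1 residual degree of freedom, from the pair left in the other group. The lone library is assumed to vary like that pair. Prior degrees of freedom, the weight of the spread shared over genes, were 6.51 and 5.94 without SD3 replicate 1 and 2. They were infinite without SD7 replicate 1 and 91.45 without SD7 replicate 2, so there the shared spread all but replaced a gene's own. Both SD7 libraries lay above both SD3 libraries for 4170 genes (30.3%) and below them for 3088 (22.4%). Over all tested genes the median log2 fold change was 0.12 in the 11-library fit and 0.03 in the 4-library fit, so medians of gene groups are given below after subtracting the all-gene median. Among the genes with an unadjusted p under 0.05 the share that was higher was 64.58% in the 11-library fit and 45.19% in the 4-library fit.

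The 4-library fit called 157 genes lower in SD7, 1.18% of all genes it tested. They included 1 of 13 amylases and alpha-glucosidases and 3 of 33 midgut markers tested in that fit. In the 11-library fit, 1 of 14 amylases and alpha-glucosidases was higher and 1 lower at an unadjusted p under 0.05, against 11.1% and 6.1% of all genes. That list's median relative to all genes ranged from -1.19 to 0.02 over the 4 ratios of an SD7 to an SD3 library. Levels are given as CPM, the count scaled to the library's total after TMM adjustment of that total, and fold changes are log2 of SD7 over SD3. yellow-d, of the yellow family of secreted proteins (2R:23378573-23380438), stood at 291 and 302 CPM in SD3 and at 54.7 and 64.9 CPM in SD7. The SD7 libraries held less than every SD3 library, and the fold change was -2.31 (SE 0.753, edgeR adjusted p = 0.219) in the 11-library fit and -2.38 (SE 0.167, edgeR adjusted p = 0.00514) in the 4-library fit. Mal-B1, a maltase that splits sugar chains (2L:11847226-11849169), was at 828 and 913 CPM in SD3 and at 277 and 229 CPM in SD7, a 4-library fold change of -1.87 (SE 0.151, edgeR adjusted p = 0.00514). LysP, a digestive lysozyme, was at 1197 and 1082 CPM in SD3 and at 78 and 293 CPM in SD7. Its SD7 replicates differed from each other more than those of SD3, and its 4-library fold change was -2.65 (SE 0.54, edgeR adjusted p = 0.0848). LysP belongs to the lysozyme gene family, and reads that fit several of its members were not counted. DNaseII, an acid endonuclease of the lysosome, was at 155 and 162 CPM in SD3 and at 45.5 and 46.9 CPM in SD7, with a fold change of -1.78 in the 11-library fit (SE 0.433, edgeR adjusted p = 0.213) and of -1.86 in the 4-library fit (SE 0.145, edgeR adjusted p = 0.00514).

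Further genes were called lower in the 4-library fit. NLaz, the fly relative of apolipoprotein D, was at 403 and 370 CPM in SD3 and at 98.9 and 128 CPM in SD7 (4-library fold change -1.83, edgeR adjusted p = 0.00959). The odorant-binding protein gene Obp44a was at 1809 and 1786 CPM in SD3 and at 854 and 702 CPM in SD7 (4-library fold change -1.29, edgeR adjusted p = 0.016). The carbonic anhydrase CAH9 was at 59.1 and 56.9 CPM in SD3 and at 18 and 18.1 CPM in SD7, 4-library fold change -1.76. For each of these genes the SD3 replicates lay close together and far above both SD7 libraries. The chitin deacetylase gene Cda9 (-2.53), the mannosidase gene alpha-Man-Ic (-1.84) and Spindly (-1.63), whose protein links dynein to kinetochores, were also called lower there, with edgeR adjusted p-values of 0.0453, 0.013 and 0.00959. The smallest unadjusted p of the 11-library fit was that of the pseudogene CR12628, at 11.6 and 13.1 CPM in SD3 and 2.96 and 3.71 CPM in SD7 (fold change -1.89, SE 0.241, edgeR adjusted p = 0.195). Among genes picked after their values were seen, the chitinase gene Cht8 was at 50.2 and 49.5 CPM in SD3 and at 9.01 and 9.71 CPM in SD7. It was called in the 4-library fit (-2.49, edgeR adjusted p = 0.00514), as was CatB (-1.72, edgeR adjusted p = 0.00959). The most abundant gene of this kind was whe, at 7575 and 5657 CPM in SD3 and 2248 and 2794 CPM in SD7 (-1.46, edgeR adjusted p = 0.0515). The gene scpr-A and its neighbours scpr-B and scpr-C were called as well (-1.54, -1.49 and -1.44), and their sequences are alike, so reads that fit several of them were not counted.

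**Figure D1:**
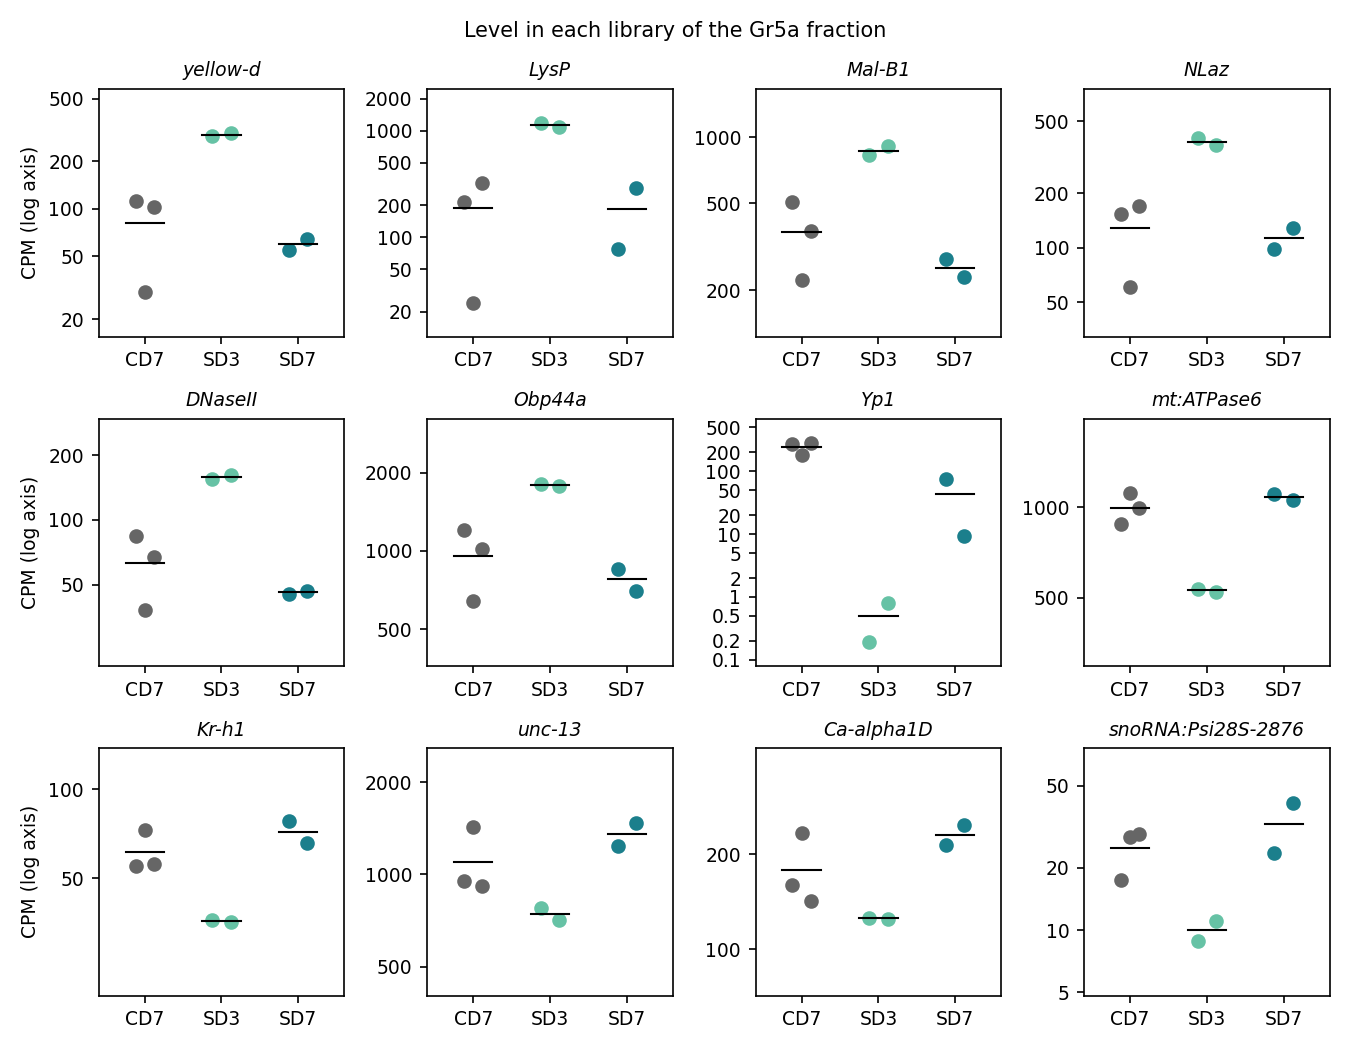
Levels in CPM, on a log axis, of 12 genes named in the text in the CD7, SD3 and SD7 libraries, with 1 point per library and a bar at the group mean. For genes such as yellow-d the SD3 points (291 and 302 CPM) lie above the SD7 points (54.7 and 64.9 CPM), and for genes such as Kr-h1 (36.1 and 35.5 against 77.9 and 65.5 CPM) they lie below.

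The libraries outside the comparison did not hold these genes at a steady level. yellow-d was at 112, 29.6 and 103 CPM in the CD7 libraries and at 40.3 and 253 CPM in the CD>CD pair, so replicates on the same diet differed by as much as SD3 and SD7. whe was at 398 and 4442 CPM in the CD>CD replicates and at 0 and 0.0876 CPM in SD>CD, and Mal-B1 was at 54.1 and 966 CPM in CD>CD and at 3.3 and 2.93 CPM in SD>CD. The wider spread of those groups enters the 11-library fit and not the 4-library fit. Over the 157 genes called lower in the 4-library fit, the median level, on the log2 scale relative to each gene's mean over the 11 libraries and to the median gene of a library, was 0.80 and 0.94 in SD3 and -0.05 and -0.15 in SD7. The 3 CD7 libraries stood at 0.48, -0.19 and 0.27, the CD>CD pair at -0.64 and 0.31, and the SD>CD pair at -0.78 and -0.71. The 82 genes called higher stood at -0.75 and -0.84 in SD3, at 0.10 and 0.19 in SD7, with CD7 at -0.35, 0.23 and -0.33 and the CD>CD pair at 0.88 and 0.08. Both sets thus differed more between SD3 and the rest than between SD7 and CD7: SD3 lay outside the range of the 3 CD7 libraries for 96.3% of the 82 genes and 79.6% of the 157, and SD7 for 12.2% and 17.2%, against 37.5% and 18.0% of all tested genes for SD3 and SD7. Since the sets were chosen by the contrast of SD7 with SD3, their levels in those 4 libraries are a description. The CD>CD replicates differed from each other by about as much as SD3 differed from SD7, and no test was run on these medians.

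**Figure D2:**
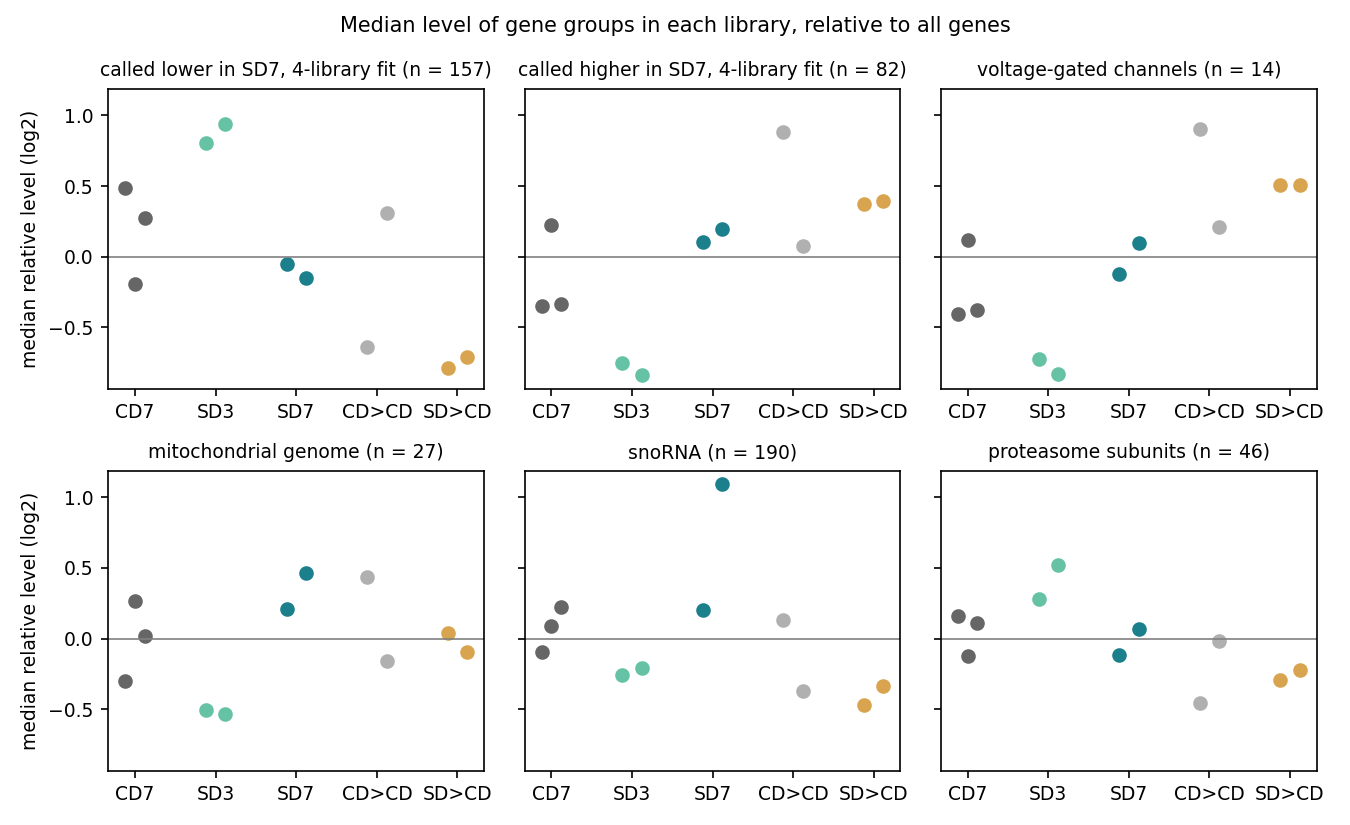
Median log2 level of 6 groups of genes in each of the 11 Gr5a libraries, relative to each gene's mean over those libraries and to the median of all genes, with 1 point per library. The 157 genes called lower in the 4-library fit stand at 0.80 and 0.94 in SD3 and at -0.05 and -0.15 in SD7, while the CD>CD replicates stand at -0.64 and 0.31.

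The lists of glycolysis enzymes, pentose phosphate and polyol enzymes and proteasome subunits had medians below that of all genes, and no member passed the adjusted test. Of 13 glycolysis enzymes tested, 8 had an unadjusted p under 0.05 and were lower (Ald1, Eno, Gapdh1, Gapdh2, Pfk, Pglym78, Tpi and Pgk), and 0 were higher. The list's median was -0.48 relative to all genes. Of all genes, 11.1% were higher and 6.1% lower at that threshold, and the counts of the lists below stand against these shares. Gapdh2, which oxidises glyceraldehyde phosphate, was at 406 and 557 CPM in SD3 and at 282 and 317 CPM in SD7 (fold change -0.68, SE 0.167, edgeR adjusted p = 0.213). Eno, the enolase, was at 680 and 768 CPM in SD3 and at 510 and 530 CPM in SD7 (-0.48, SE 0.115, edgeR adjusted p = 0.213). In both genes the SD3 replicates differed from each other, and the lower of them still lay above both SD7 libraries. Of 6 enzymes of the pentose phosphate and polyol routes, which draw glucose into NADPH and sugar alcohols, 3 were lower at that threshold (Zw, Pgd and Rpe), with a list median of -0.47. Of 46 proteasome subunits, 18 were lower and 0 higher, with a median of -0.50. Rpt2, an ATPase of the proteasome's regulatory cap, was at 60.5 and 76.7 CPM in SD3 and at 42.3 and 49.7 CPM in SD7 (-0.58, SE 0.172, edgeR adjusted p = 0.213). None of these 3 lists had a member called in the 4-library fit, where the edgeR adjusted p was 0.133 for Gapdh2. In CD7 the pull-down had enriched 8 of the 13 glycolysis enzymes, 4 of the 6 pentose phosphate and polyol enzymes and 22 of the 46 proteasome subunits. It had depleted 1, 0 and 15 of them, and of all genes 26.7% were enriched and 24.8% depleted.

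The lists of detoxification genes and vacuolar ATPase subunits also had medians below that of all genes, while of 11 genes of sugar transport and storage 2 were higher and 2 lower at an unadjusted p under 0.05 (median -0.18). Of 17 genes of detoxification and glutathione use, 7 were lower at an unadjusted p under 0.05 and 0 higher (median -0.59), and GstD1 and GstE1 were called lower in the 4-library fit. In CD7 the pull-down had enriched 11 of these 17 genes and depleted 0. GstE1, a glutathione transferase, was at 90.7 and 101 CPM in SD3 and at 55.8 and 60.9 CPM in SD7 (4-library fold change -0.79, edgeR adjusted p = 0.0823). The vacuolar ATPase is the proton pump of acid organelles. Of 28 of its subunits, 6 were lower (21.4%, against 6.1% of all genes) and 2 higher (7.14%, against 11.1%), with a median of -0.30. Vha36-1, VhaPPA1-1, Vha68-2 and Vha100-2 were called lower in the 4-library fit, and Vha100-2 was at 431 and 392 CPM in SD3 and at 258 and 224 CPM in SD7 (-0.85, edgeR adjusted p = 0.0453). Indy, a plasma membrane citrate transporter, was at 194 and 226 CPM in SD3 and at 114 and 97.2 CPM in SD7 (-1.08, edgeR adjusted p = 0.0316). The drug transporter gene Mdr65 of the blood-brain barrier was at 121 and 191 CPM in SD3 and at 83.3 and 77.4 CPM in SD7 (-1.04, edgeR adjusted p = 0.094). Indy and Mdr65 also stood on the list of 12 glia markers, of which 5 were lower at an unadjusted p under 0.05 and 0 higher. Nuclear genes of oxidative phosphorylation had 9 of 79 members lower (11.4%) and 0 higher (median -0.34). The Cpr cuticle proteins had 5 of 37 lower (13.5%) and 2 higher (5.41%), with a median of -0.51. Of all genes, 6.1% were lower and 11.1% higher. cry, which encodes the blue-light receptor of the clock, was at 244 and 315 CPM in SD3 and at 171 and 175 CPM in SD7 (-0.69, SE 0.158, edgeR adjusted p = 0.213 in the 11-library fit).

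Most voltage-gated channel genes were higher in SD7. Of 14 voltage-gated channel genes, 12 had an unadjusted p under 0.05 and were higher and 0 were lower, 6 of them were called in the 4-library fit (eag, Ca-alpha1D, Sh, Shab, cac and Ca-alpha1T), and the median was 0.74 above that of all genes. eag, a potassium channel, was at 85.8 and 74.9 CPM in SD3 and at 145 and 158 CPM in SD7 (4-library fold change 0.84, SE 0.149, edgeR adjusted p = 0.0672). The calcium channel gene Ca-alpha1D was at 126 and 125 CPM in SD3 and at 214 and 248 CPM in SD7 (0.81, SE 0.153, edgeR adjusted p = 0.0731). Sh, the Shaker potassium channel (picked, like cac, after its values were seen), was at 401 and 359 CPM in SD3 and at 704 and 960 CPM in SD7 (1.07, edgeR adjusted p = 0.0715). In these genes both SD7 libraries stood above both SD3 libraries. The channel list was at -0.72 and -0.83 in SD3 on the same relative log2 scale, at -0.12 and 0.10 in SD7, with the CD7 libraries at -0.41, 0.12 and -0.38, the CD>CD pair at 0.90 and 0.21 and the SD>CD pair at 0.51 and 0.51, so SD3 was the lowest group and the ranges of SD7 and CD7 overlapped. Of 17 genes of synaptic vesicles and active zones, 10 were higher and 1 lower (median 0.42). unc-13, which primes vesicles for release, was at 779 and 708 CPM in SD3 and at 1236 and 1466 CPM in SD7 (4-library fold change 0.79, edgeR adjusted p = 0.0993), while the vesicle genes cpx (0.70) and Syt1 (0.56) had edgeR adjusted p-values of 0.108 and 0.16 there. Among genes picked after their values were seen, the acetylcholine receptor subunit gene nAChRbeta1 was at 74.3 and 72.5 CPM in SD3 and at 132 and 157 CPM in SD7 (0.91, edgeR adjusted p = 0.0672).

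Kr-h1, a zinc finger factor that acts downstream of juvenile hormone, was at 36.1 and 35.5 CPM in SD3 and at 77.9 and 65.5 CPM in SD7. Its fold change was 1.00 in the 11-library fit (SE 0.155, edgeR adjusted p = 0.213) and 0.92 in the 4-library fit (edgeR adjusted p = 0.052). CD7 held 55.0, 72.9 and 56.0 CPM of it, so SD3 lay below the whole range of CD7 and SD7. Hr38, a nuclear receptor gene induced by neuronal activity, was at 34.9 and 32.3 CPM in SD3 and at 67.8 and 58.3 CPM in SD7 (4-library fold change 0.83, edgeR adjusted p = 0.0698). Of 8 activity-regulated genes, Hr38, sr, kay and Arc1 were higher at an unadjusted p under 0.05, 0 were lower, and Hr38 alone was called in the 4-library fit. Arc1, a retrovirus-derived gene of synapses, was at 91.8 and 115 CPM in SD3 and at 246 and 148 CPM in SD7 (4-library fold change 0.83, edgeR adjusted p = 0.133), so its SD7 replicates were far apart. The dopamine receptor gene Dop2R was at 138 and 152 CPM in SD3 and at 233 and 252 CPM in SD7 (0.67, edgeR adjusted p = 0.103). RpL34b, a ribosomal protein gene with a near-identical copy, was called higher in the 4-library fit (149 and 131 against 260 and 220 CPM, edgeR adjusted p = 0.0712). The 87 cytosolic ribosomal protein genes as a list had a median of 0.06. At an unadjusted p under 0.05, 10 of them were higher (11.5%, near the 11.1% of all genes) and 0 lower (6.1% of all genes).

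The yolk protein genes Yp1 and Yp2 stood apart in SD7 and SD3, with SD7 replicates far from each other, and Yp3 differed less. Yolk proteins are made in the fat body and ovary of females and are hardly made by males. Yp1 was at 0.193 and 0.802 CPM in SD3 (6 and 32 counts) and at 76.5 and 9.39 CPM in SD7 (3703 and 441 counts). Yp2 was at 0.386 and 0.0751 CPM in SD3 and at 13.6 and 1.6 CPM in SD7. SD7 replicate 1 held most of the excess, and both SD7 libraries lay below CD7, where Yp1 was at 272, 185 and 284 CPM. It was at 3.9 and 1.42 CPM in the CD>CD pair and at 2.44 and 3.15 CPM in the SD>CD pair, so every Gr5a library of the upper number range held less Yp1 than every Gr5a library of the lower range, and CD7 over CD>CD had a fold change of 6.58 (edgeR adjusted p = 0.0152). The 11-library fold change of Yp1 was 6.35 (SE 1.03, edgeR adjusted p = 0.213), and that of Yp2 was 5.12 (SE 1.06, edgeR adjusted p = 0.213). In the 4-library fit Yp1 was called (edgeR adjusted p = 0.056) and Yp2 was not (edgeR adjusted p = 0.101). Yp3 was at 18.9 and 20.1 CPM in SD3 and at 61.2 and 22.3 CPM in SD7 and was not called in the 4-library fit (edgeR adjusted p = 0.232).

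Most transcripts of the mitochondrial genome and most small nucleolar RNAs were higher in SD7. Of 27 mitochondrially encoded genes tested, 21 had an unadjusted p under 0.05 and were higher, 0 were lower and 8 were called in the 4-library fit, with a median 0.91 above that of all genes. mt:ATPase6, a subunit of the ATP synthase, was at 536 and 523 CPM in SD3 and at 1102 and 1055 CPM in SD7 (11-library fold change 1.03, SE 0.174, edgeR adjusted p = 0.213, and 4-library fold change 0.95, edgeR adjusted p = 0.0427). The cytochrome oxidase subunit gene mt:CoII was at 459 and 435 CPM in SD3 and at 764 and 774 CPM in SD7 (4-library fold change 0.71, edgeR adjusted p = 0.0821). In CD7 the pull-down had depleted 26 of the 27 relative to the input. Of 190 small nucleolar RNAs, which guide the chemical marking of ribosomal RNA, 122 were higher and 0 lower (median 1.08), but 2 were called in the 4-library fit. Their median relative log2 level was -0.26 and -0.21 in SD3 and 0.21 and 1.09 in SD7, so SD7 replicate 2 carried most of the difference. snRNA:U2:34ABa, a copy of the U2 spliceosome RNA, was at 8.26 and 12 CPM in SD3 and at 38.2 and 81.6 CPM in SD7 (4-library fold change 2.50, edgeR adjusted p = 0.0515), and its near-identical copies share reads that were not counted. The long non-coding RNA lncRNA:CR43900, whose span lies inside that of Cam on the same strand, was at 2.73 and 4.36 CPM in SD3 and at 11.5 and 15.1 CPM in SD7 (1.83, edgeR adjusted p = 0.0818). Among RNAs picked after their values were seen, the nuclear RNAs lncRNA:Hsromega (1.27), lncRNA:roX1 (1.05), lncRNA:roX2 (0.96) and snRNA:7SKa (1.12) were called higher in the 4-library fit, with edgeR adjusted p-values between 0.056 and 0.0818. lncRNA:Hsromega, a stress-linked nuclear RNA, was at 1152 and 937 CPM in SD3 and at 2194 and 3065 CPM in SD7, while its CD>CD replicates were at 4375 and 1267 CPM.

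**Figure D3:**
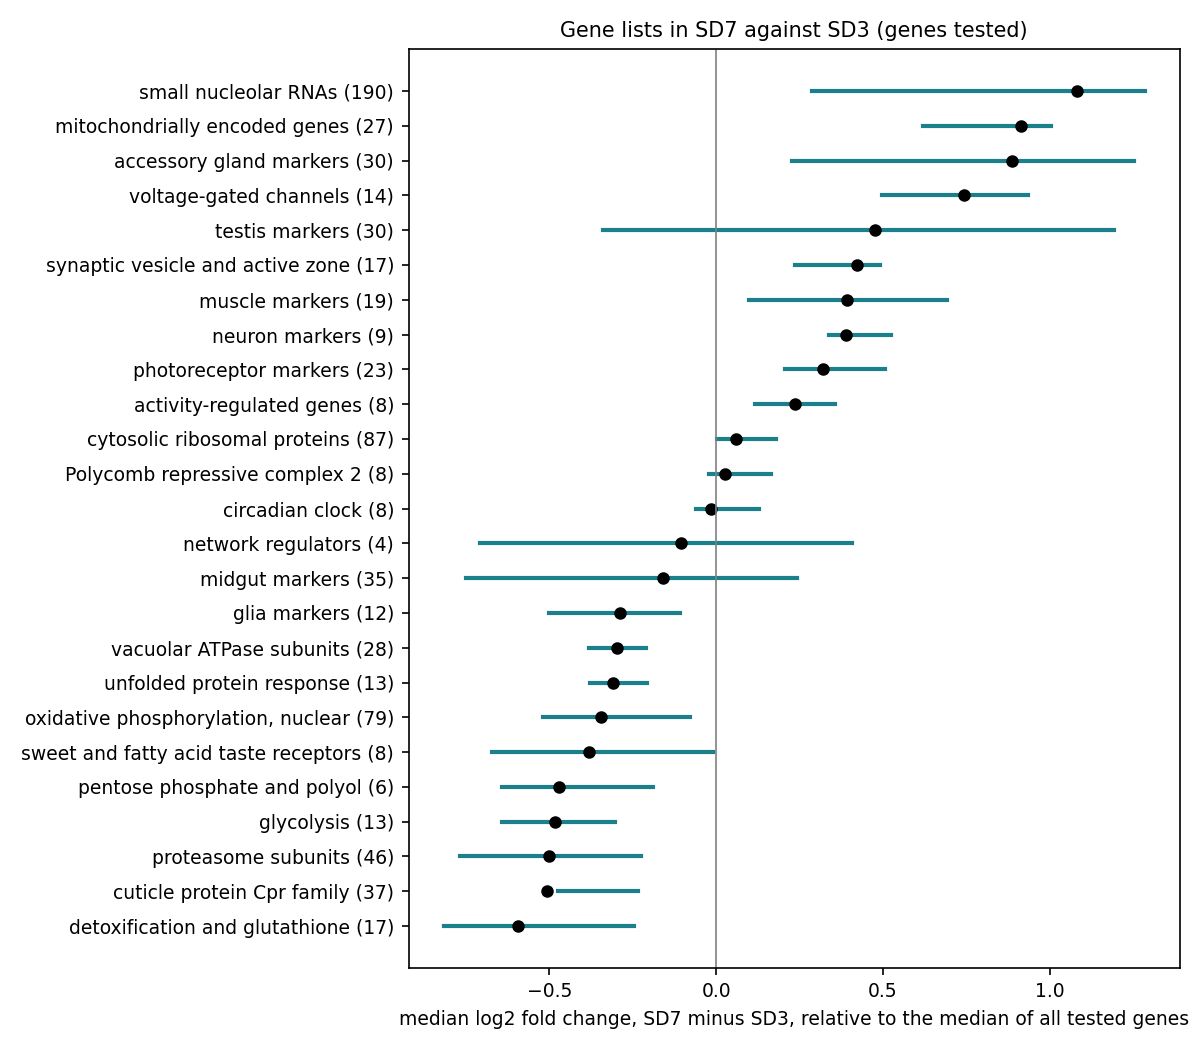
Median log2 fold change of SD7 over SD3 for each gene list minus that of all tested genes, as a point from the 11-library edgeR fit, with a line from the lowest to the highest of the medians over the 4 ratios of an SD7 to an SD3 library, taken on log2 of CPM plus 0.5. The number of genes tested stands in brackets. Voltage-gated channels stand at 0.74 and glycolysis enzymes at -0.48, and the lines of both keep to their side of 0.

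None of the sweet and fatty acid taste receptors passed a test in either edgeR fit. Gr5a itself was at 3.05 and 3.91 CPM in SD3 and at 2.89 and 2.47 CPM in SD7, with CD7 at 3.48, 2.06 and 2.78 CPM. Its fold change was -0.38 (SE 0.336, edgeR adjusted p = 0.535), with a 95% interval from -1.12 to 0.37 that leaves room for more than a 1.5-fold difference. The sugar receptor gene Gr64f was at 4.44 and 8.12 CPM in SD3 and at 5 and 6.18 CPM in SD7, and Gr64a at 2.54 and 4.08 CPM and at 1.86 and 3.47 CPM, so for both genes the groups overlapped. Gr61a was at 1.09 and 1.4 CPM in SD3 and at 2.13 and 1.55 CPM in SD7 (fold change 0.56, edgeR adjusted p = 0.425), and Gr43a, a fructose receptor, had 4 and 21 counts in SD3 and 33 and 8 in SD7. Among the ionotropic receptors, the coreceptor genes Ir25a and Ir76b and the fatty acid receptor gene Ir56d were all somewhat lower in SD7. Ir25a was at 48.1 and 80.7 CPM in SD3 and at 28.8 and 36.9 CPM in SD7 (-0.97, SE 0.448, edgeR adjusted p = 0.301). Ir76b was at 93.8 and 99.4 CPM in SD3 and at 83.1 and 84.4 CPM in SD7 (-0.21, SE 0.18, edgeR adjusted p = 0.529), and Ir56d at 4.79 and 6.41 CPM and at 2.48 and 3.62 CPM (-0.88, SE 0.489, edgeR adjusted p = 0.362). Of the list of 12, 8 were tested, and the pull-down of CD7 had enriched 7 of them over its input. The neighbours Gr64b, Gr64c, Gr64d and Gr64e were listed at 0 counts in all 4 libraries, and since they overlap each other in the genome, reads shared between them were not assigned.

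The regulator genes of the study and the members of its chromatin complex did not pass the adjusted test either. cad, a homeobox gene, was at 47.4 and 29.5 CPM in SD3 and at 41.5 and 18.7 CPM in SD7 (fold change -0.35, SE 0.497, edgeR adjusted p = 0.691). GATAe, a zinc finger gene of the gut, was at 27.9 and 20.3 CPM in SD3 and at 34.5 and 15.6 CPM in SD7 (0.06, SE 0.543, edgeR adjusted p = 0.96). Ptx1 was at 25.7 and 21.4 CPM in SD3 and at 33.9 and 16.2 CPM in SD7, and nub at 26.8 and 22.4 CPM and at 29.7 and 18.7 CPM. In all 4 genes replicate 2 of each group was the lower library, and the groups overlapped. Their 95% intervals were wide, from -1.17 to 1.29 for GATAe and from -0.76 to 0.71 for nub. Polycomb repressive complex 2 methylates histone H3 at silenced genes. Of its 8 tested genes, esc and jing (25%) were higher at an unadjusted p under 0.05 and 0 were lower, against 11.1% and 6.1% of all genes. esc, a core subunit, was at 6.69 and 6.31 CPM in SD3 and at 13.1 and 14.8 CPM in SD7 (fold change 1.10, SE 0.455, edgeR adjusted p = 0.268), and the accessory subunit gene jing was at 88.4 and 74.4 CPM and at 134 and 116 CPM (0.62, edgeR adjusted p = 0.218). Pcl, the Polycomb-like subunit, was at 53 and 50.1 CPM in SD3 and at 57.5 and 59.4 CPM in SD7 (0.18, 95% interval -0.09 to 0.45), and the methyltransferase gene E(z) was at 27.1 and 32.1 CPM and at 26.3 and 31.8 CPM (-0.03, 95% interval -0.34 to 0.28). Pcl, E(z), Jarid2 and Su(z)12 were among 3131 genes (22.8%) that an equivalence test placed within 1.5-fold in the 11-library fit. Without SD3 replicate 1, SD7 replicate 1 or SD7 replicate 2 that test placed 0 genes there, and without SD3 replicate 2 it placed 1519. RpL3, the gene whose product carries the tag in the transgene, was at 967 and 876 CPM in SD3 and at 1106 and 849 CPM in SD7.

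**Figure D4:**
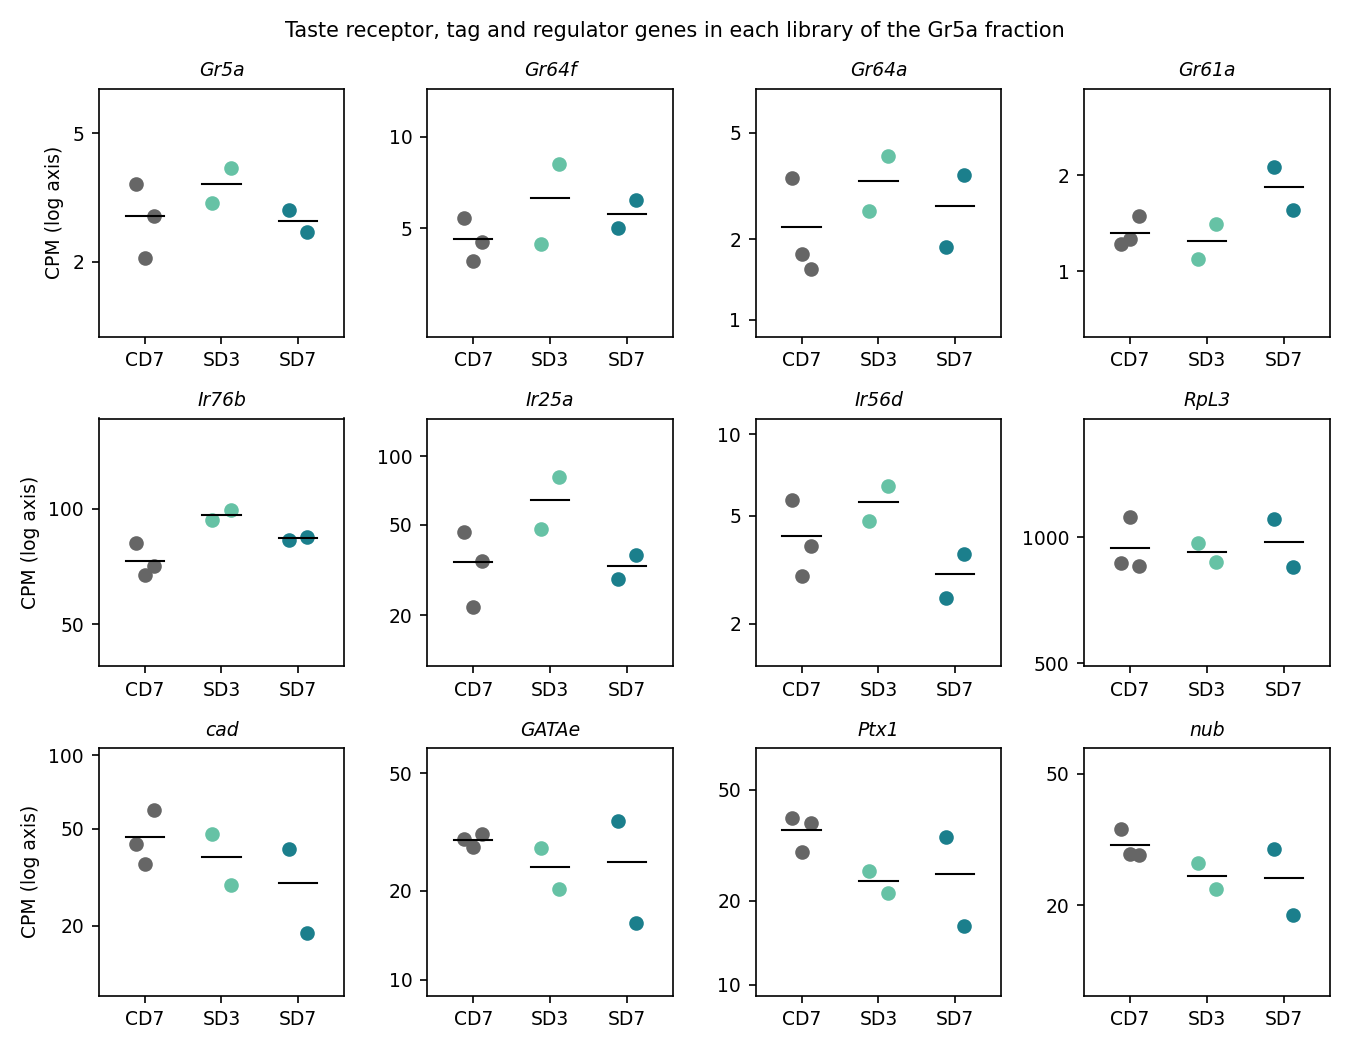
Levels in CPM, on a log axis, of 7 taste receptor genes, RpL3 and 4 regulator genes in the CD7, SD3 and SD7 libraries, with 1 point per library and a bar at the group mean. Gr5a lies between 2.47 and 3.91 CPM in the 4 libraries compared, and GATAe is at 27.9 and 20.3 CPM in SD3 and at 34.5 and 15.6 CPM in SD7.

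Over all genes, direction tended to go with place in the pull-down, but some lists did not follow it. Of 79 nuclear genes of oxidative phosphorylation (median -0.34), the pull-down of CD7 had enriched 3 and depleted 32. The counts were 11 and 15 for 28 vacuolar ATPase subunits (median -0.30), and 2 and 20 for 28 neuropeptide genes (median -0.15). A comparison of the Gr5a fraction with the input of CD7, which shares no library with SD7 and SD3, called 3545 of 13445 genes higher in the Gr5a fraction (26.4%) and 3397 lower (25.3%). Of the 157 genes called lower in SD7 in the 4-library fit, 135 (86.0%) were higher in the Gr5a fraction and 2 were lower, against 26.7% and 24.8% of all genes of the 11-library fit that the pull-down comparison also tested. Of the 82 genes called higher in SD7, 6 (7.32%) were higher in the Gr5a fraction and 30 (36.6%) were lower. Over the genes lower in the Gr5a fraction the median fold change of SD7 over SD3 was 0.49 above that of all genes, and over those higher in it -0.31, a gap of 0.79. The gap lay between 0.38 and 1.09 when each of the 4 libraries was left out and was 0.38 without SD7 replicate 1. From the lowest to the highest of 10 equal bins of genes by pull-down ratio, the median relative to all genes went from 0.68 to -0.51. Over the 4 ratios of an SD7 to an SD3 library, the lowest bin ranged from -0.04 to 0.91 and the highest from -0.56 to -0.38. Spearman's rho was -0.576 across 13279 genes, which are not independent replicates and share a driver, an assay and a depth. Within a library, the median log2 level of the genes lower in the Gr5a fraction minus that of those higher in it was 0.05 and -0.21 in SD3 and 0.75 and 0.29 in SD7. It was -0.07, 0.34 and 0.17 in CD7, so SD7 replicate 2 lay inside the range of the control diet and SD7 replicate 1 above it. Among genes of at least 5 CPM the difference was -0.14 and -0.21 in SD3 and 0.30 and 0.22 in SD7. A lower share of tagged RNA in a pull-down and a lower level of the same genes in the tagged cells cannot be told apart here, nor can fewer cells of a type and less RNA per cell.

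**Figure D5:**
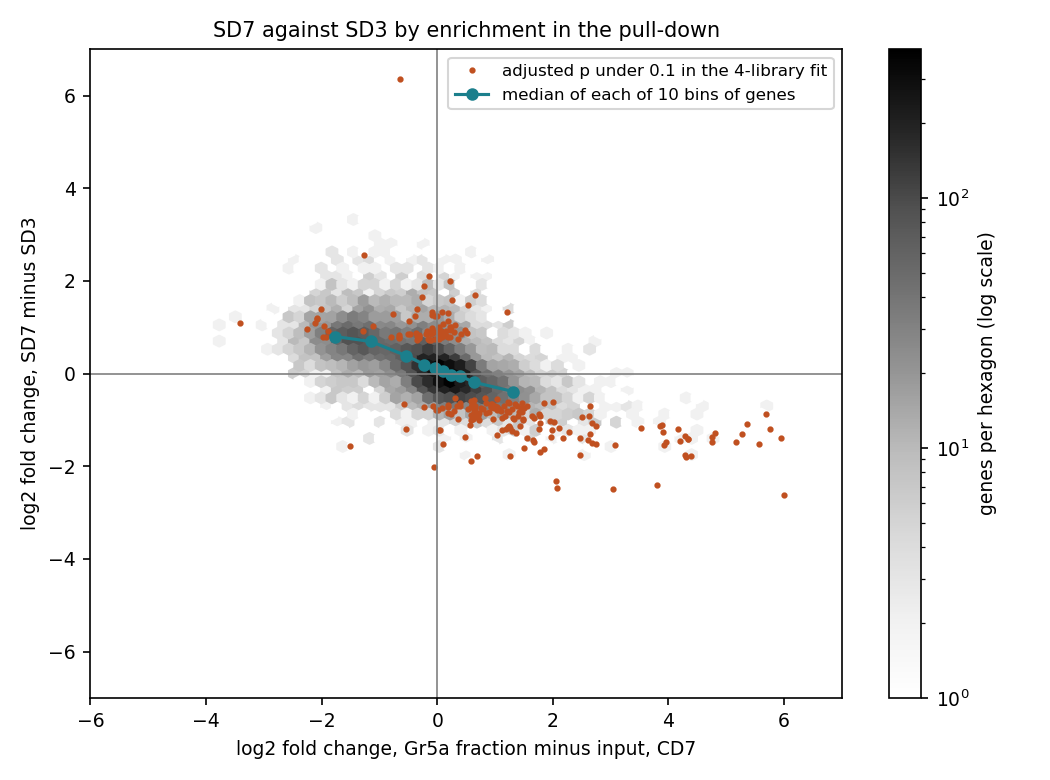
Log2 fold change of SD7 over SD3 against that of the Gr5a fraction over the input in CD7, with grey hexagons for the number of genes, orange points for genes called in the 4-library fit and a line through the medians of 10 bins of genes. The medians, here without subtracting that of all genes, go from 0.80 in the lowest bin to -0.39 in the highest, and most orange points below 0 lie to the right of 0.

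Several lists of markers of other cell types differed between SD3 and SD7, and not all of these lists followed the pull-down. Their sums are over all members of a list, also those too low to be tested. The 23 photoreceptor genes summed to 14560 and 17190 CPM in SD3 and 22010 and 21950 CPM in SD7, and 14 of the 23 were higher at an unadjusted p under 0.05 and 0 lower. The 19 muscle genes summed to 4631 and 3862 CPM in SD3 and to 5574 and 6987 CPM in SD7 (9 higher, 0 lower), and the 9 general neuron markers to 3954 and 3777 CPM and to 5173 and 5590 CPM (7 higher, 0 lower). The pull-down of CD7 had depleted most photoreceptor and muscle genes (20 of 23 and 13 of 19), but 2 of the 9 neuron markers, 5 of the 17 synaptic genes and 0 of the 14 channel genes. The 12 glia markers summed to 3718 and 4571 CPM in SD3 and to 3031 and 3369 CPM in SD7. The midgut list (35 genes tested), of digestive proteases, lysozymes and amylases, summed to 4085 and 3897 CPM in SD3 and to 2498 and 1284 CPM in SD7, against 3444 to 6617 CPM in CD7, and 2 of the list's 39 members were at 0 in all 4 libraries. Of its tested members 1 was higher and 1 lower at an unadjusted p under 0.05. That is 2.86% each way, against 11.1% and 6.1% of all genes. Its median was -0.16 relative to all genes, with a range from -0.75 to 0.24 over the 4 ratios of an SD7 to an SD3 library. LysP and the proteases epsilonTry (51.8 and 44.4 against 23.2 and 13.2 CPM) and Jon74E (240 and 187 against 107 and 43 CPM) of that list were called lower in the 4-library fit. The accessory gland list (30 tested) summed to 222 and 176 CPM in SD3 and to 501 and 247 CPM in SD7 (10 higher, 0 lower). The testis list (30 tested) summed to 935 and 681 CPM and to 1516 and 757 CPM. Of its members 4 were higher (13.3%, near the 11.1% of all genes) and 0 lower, and its relative median ranged from -0.34 to 1.19 over the 4 ratios. The fat body list (14 tested, Yp1 among them) summed to 3417 and 4123 CPM and to 6555 and 4102 CPM. SD7 replicate 1 was the highest of the 4 libraries for all 3 of these lists. The part of such markers in the results on channels, synapses, lysozymes and yolk proteins was not tested.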

How the data were processed

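RNA of 300 fly heads per replicate was measured by translating mRNA affinity purification in the 4 libraries compared, next to 7 other Gr5a libraries and 5 input libraries. The authors aligned the reads with STAR to BDGP6 (dm6) and deposited a table of raw counts for each library, neither normalized nor pooled. Their methods name HTSeq, but the layout of the deposited count tables is that of STAR. SAMtools 1.4 and DESeq2 1.18.0 also stand in the submitters' processing notes. The same-strand column was used (96.28% to 96.92% of strand-specific counts in the 4 libraries), and CD7 replicate 1, with 1 count column, was taken as same-strand. Reads that map to several places are left out of these counts. Of 17489 genes listed, 17215 had a symbol and a position in the Ensembl annotation of BDGP6.

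Groups followed the labels, and SD>CD followed the condition label against its titles. The replicates are separate samples of 300 heads, and p-values measure the spread between them. The test was edgeR 4.0.16's in R 4.3.3 (quasi-likelihood F test, filterByExpr, TMM, prior count 0.125, Benjamini-Hochberg adjustment, calls at an adjusted p under 0.1, the study's threshold). The fit over the 11 Gr5a libraries had 6 residual degrees of freedom and that over the 4 libraries had 2, and each was run on simulated data. The simulation drew every group with the same spread, so it did not check the fits where groups differ in spread, as they do here. SE is the log2 fold change over the square root of F. CPM uses TMM factors, but a marker list's sum is scaled by the library's gene count total only. Steadiness was tested by a pair of one-sided tests against 1.5-fold. A median gene of at least 5 CPM had a 95% interval 0.85 wide on the log2 scale (8832 genes), which limits what 2 libraries a group can show.

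Named genes were the 12 largest differences in each direction (mean of at least 5 CPM, no overlap of groups, unadjusted p under 0.05 since none passed), the 10 smallest p-values, the 4 smallest p-values of each gene list, all tested taste receptors, regulators, Polycomb repressive complex 2 and yolk genes, and abundant steady genes. Others are said to have been picked later. Members and lists were chosen with earlier results of these data known. Of the largest decreases, 1 had an identifier with no symbol. A regulator gene of the study is not reported here. Alternatives were the unstranded column, DESeq2 size factors, the DESeq2 1.42.0 Wald test, other filters and sets of libraries, a replicate block, a prior count of 2 and leaving out single libraries. Those for the 4-library fit, the pull-down gap, the share higher and CD>CD were chosen after seeing the data.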

Additional observations from a re-analysis of the deposited data

How the results depend on the processing

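The count of genes called in SD7 against SD3 (0 in the fit of 11 libraries) was 776 by the DESeq2 Wald test, 239 in the 4-library fit, 3 without CD>CD replicate 1 and 0 to 2 when each of the 4 libraries was left out. With the replicate number as a replicate block it was 0, with 1693 genes at an unadjusted p under 0.05 (2369 without the block). Deviations of same-numbered SD3 and SD7 replicates had a correlation of 0.293 over 13758 genes. This is a single value, which cannot show whether same-numbered samples share a replicate effect. Without each library in turn, 828 to 2906 genes had an unadjusted p under 0.05. The share of these that was higher (64.58%) was 37.51% with no low-count filter, 42.78% without genes over 1% of a library, 45.19% in the 4-library fit, 48.05% with CD7, SD3 and SD7 alone, 44.25% without SD>CD, 42.79% without CD>CD replicate 1 and 47.58% to 72.2% with each library left out. The 4-library count of 239 became 1136 by the Wald test, 109 with unstranded counts, 1918 with the replicate block and 21 to 3219 with each library left out, where 1 residual degree of freedom remains in each fit. Genes placed within 1.5-fold (3131) were 1927 in the 4-library fit and 0 to 1519 with each library left out. The skew of the fold changes (1.549) ran from 0.1965 to 2.72, and the gap between pull-down classes (0.7932) from 0.3806 to 1.085. The pull-down count (6942) ran from 5276 to 7973, and that of CD7 against CD>CD (1942) from 166 to 3388. The medians of the glycolysis, proteasome, detoxification, channel, synaptic, mitochondrial and small nucleolar RNA lists, relative to all genes, kept their sign in all 17 alternatives. The sign of 10 genes depended on the setting. GATAe was -0.0052 with unstranded counts, -0.070 with no filter, -0.0529 without genes over 1%, -0.0410 with 4 libraries, -0.0439 with CD7, SD3 and SD7, -0.0547 without SD>CD and -0.0558 without CD>CD replicate 1. Ptx1 was, from no filter on in that order, -0.0354, -0.0180, -0.0054, -0.0082, -0.0202 and -0.0214. RpL3 was -0.035 with no filter, -0.0142 without genes over 1%, -0.0014 with CD7, SD3 and SD7, -0.0176 without SD>CD and -0.0189 without CD>CD replicate 1. escl was -0.0108 unstranded, -0.0142 unfiltered and -0.0007 without CD>CD replicate 1, and nub was 0.0021 with at least 10 counts. With each library left out, GATAe ran from -0.640 to 0.511, Ptx1 from -0.551 to 0.521, RpL3 from -0.139 to 0.258, escl from -0.176 to 0.329, Gr43a from -0.992 to 1.60, E(z) from -0.178 to 0.0765, Gr64a from -0.839 to 0.0332, Gr64f from -0.543 to 0.257, cad from -1.06 to 0.105 and nub from -0.413 to 0.265. The cause of these changes was not tested. Of 103 genes followed, 76 passed the threshold under some alternative.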

Other observations

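Values by position and size of genes were picked after they were seen. Of 104 tested genes of chromosome 4, the small, largely heterochromatic chromosome of the fly, 45 (43.3%) were higher in SD7 at an unadjusted p under 0.05 and 1 was lower, against 11.1% and 6.1% of all genes. unc-13 and pho, which encodes a DNA-binding Polycomb group protein, lie there, and pho was at 53.5 and 50.5 CPM in SD3 and at 77.8 and 82 CPM in SD7 (edgeR adjusted p = 0.213). The median of the chromosome was 0.30 above that of all genes, and its genes had a median pull-down ratio of -0.24 on the log2 scale. Protein-coding genes were also put in 4 equal bins by the span of the gene. In the bin of the longest genes (median 12750 bases) 641 of 2996 (21.4%) were higher, against 5.54%, 4.71% and 8.32% in the other bins from the shortest up. The shares that were lower were 6.41% in that bin and 4.0%, 7.98% and 8.62% in the others, and its median was 0.04 above that of all genes, next to 0.03 in the bin of the shortest genes and -0.13 and -0.12 in those between. No explanation was tested for either value.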
